A study of Mus musculus with 4 samples.

Results

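The genes described here are the effectors of the Hippo pathway and 4 of their best known targets, namely Yap1, Wwtr1, Tead1, Tead2, Tead3, Tead4, Ctgf, Cyr61, Ankrd1 and Amotl2. They were chosen by symbol, and all 10 were found among the 22556 genes of the deposited table. The source of RNA was the whole lung of E16.5 mouse embryos, with 2 libraries per genotype, Control 1 and 2 and Shh-Stk11 1 and 2. Control embryos were Shh-Cre; Stk11F/+, with 1 floxed allele, and Shh-Stk11 embryos were Shh-Cre; Stk11F/F, with both alleles floxed. The driver was present in both groups and is active in the endoderm that gives rise to the lung epithelium, so mesenchyme, vessels and blood kept an intact Stk11 gene. C57BL/6 was the strain in the labels, but mixed backgrounds were stated in the study's methods. Values are FPKM, that is, fragments scaled to transcript length and to library size.

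In the Hippo pathway, the kinases MST1 and MST2 activate LATS1 and LATS2, which phosphorylate the coactivators YAP and TAZ and keep them out of the nucleus. YAP and TAZ that reach the nucleus bind the TEAD transcription factors and switch on targets such as Ctgf and Cyr61. STK11 has been linked to this pathway through the MARK kinases and the Scribble polarity complex, and in the lung epithelium YAP is known for its part in airway growth and differentiation. Since phosphorylation and location regulate YAP and TAZ, an RNA level does not measure their activity.

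None of the 10 genes passed the test between the genotypes. The comparison was limma's moderated test on log2(FPKM + 0.1) with Benjamini-Hochberg adjustment over the 13770 genes whose mean reached 0.5 FPKM, and genes with an adjusted p under 0.05 were called. All 10 genes were tested, and 1 of them, Tead4, had an unadjusted p under 0.05. Over all genes tested, 313 or 2.27% were called and 2095 or 15.2% had an unadjusted p under 0.05. A fold change is given throughout as the log2 difference of Shh-Stk11 minus Control. With 2 libraries against 2, an exact permutation test cannot give a two-sided p below 0.333. The labels do not say whether the libraries of a genotype came from separate embryos. Sex-linked RNA was unlike in Shh-Stk11 1 and 2, with Xist at 169 and 0.239 FPKM and Ddx3y at 0.0146 and 23.5 FPKM. These libraries were thus not from the same embryo. If the Control libraries shared an embryo, the spread between them, which enters the p-values, may be technical. The methods of the study speak of independent biological replicates.

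The libraries were of similar depth, 30.6 to 37.7 M reads as recovered from the spacing of the low FPKM values. The median SE of a log2 fold change was 0.156 over all genes tested, and the median absolute log2 difference between replicates was 0.183 in Control and 0.158 in Shh-Stk11. Stk11 itself, the deleted gene, was at 44.0, 45.5, 29.5 and 26.0 FPKM in the Control and then the Shh-Stk11 libraries, a fall by 0.69 on the log2 scale (SE 0.125, adjusted p = 0.0499) that passed the threshold in 4 of 16 alternative settings. Leaving out any 1 library ended the Stk11 call, with adjusted p from 0.113 (without Shh-Stk11 1) to 0.183 (without Control 2). Shh-Stk11 2 was the one library with Y-linked RNA (Ddx3y at 23.5 FPKM, elsewhere no more than 0.0285 FPKM). The lung markers Nkx2-1 and Sftpc were high in every library, at no less than 170 and 8000 FPKM.

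RNA of Yap1 and Wwtr1 was abundant in every library. Yap1, which encodes YAP, was at 46.2 and 42.6 FPKM in Control and at 43.7 and 40.5 FPKM in Shh-Stk11. The libraries of both genotypes were interleaved and lay close together. The log2 fold change was -0.08 (SE 0.122, 95% confidence interval -0.37 to 0.22, adjusted p = 0.819). Wwtr1, which encodes TAZ, was at 88.5 and 64.0 FPKM in Control and at 60.7 and 73.3 FPKM in Shh-Stk11. Control 1 was the highest and Shh-Stk11 1 the lowest, and the groups overlapped. Its log2 fold change was -0.17 (SE 0.19, 95% confidence interval -0.63 to 0.28, adjusted p = 0.717), and became 0.06 without Control 1.

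TAZ RNA was the more abundant of the pair on the length-scaled FPKM level in all 4 libraries. The ratio of Wwtr1 to Yap1 was 1.92 and 1.50 in the Control libraries and 1.39 and 1.81 in the Shh-Stk11 libraries. The groups overlapped in this ratio, and the log2 ratio differed by -0.10 between the genotypes (exact permutation test, two-sided, p = 0.667). Without Control 1 this difference was 0.08, and without Shh-Stk11 1 it was 0.09.

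**Figure D1:**
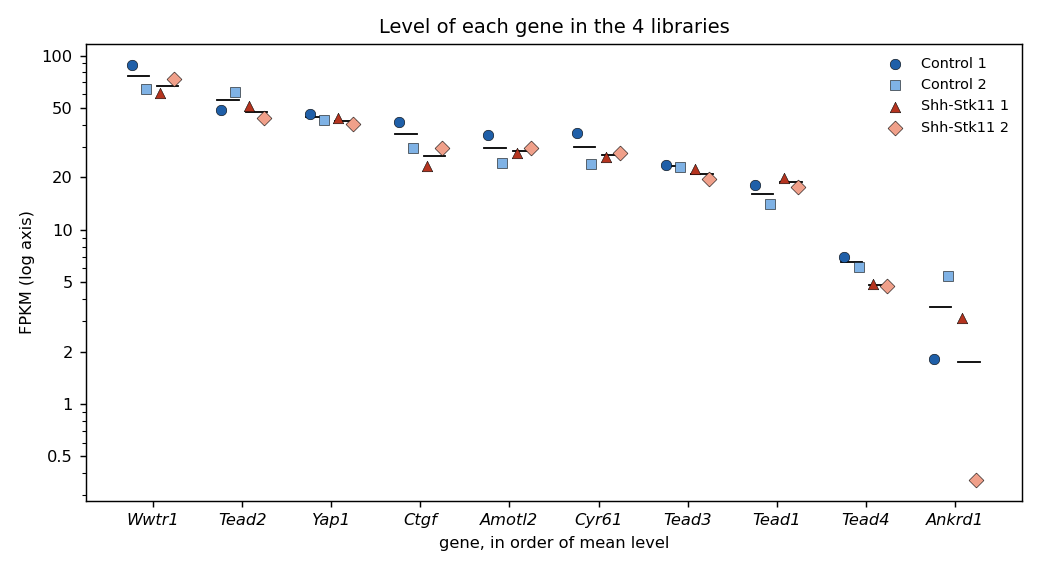
FPKM (log axis) of each of the 10 genes in the 4 libraries, with 1 point per library and the 2 genotypes in different colors. The libraries of the genotypes interleave for 7 genes and stand apart, lower in Shh-Stk11, for Tead3, Tead4 and Ctgf.

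The TEAD factors carry the DNA contact for YAP and TAZ, and all 4 genes of the family were expressed. Tead1 was at 18.0 and 14.0 FPKM in Control and at 19.9 and 17.7 FPKM in Shh-Stk11. Control 2 was the lowest library, and Control 1 lay between the Shh-Stk11 libraries. Tead1 was the only one of the 10 genes with a positive log2 fold change, 0.24 (SE 0.161, 95% confidence interval -0.14 to 0.63, adjusted p = 0.539). Its longest annotated transcript spans 9964 bases, and after removal of the trend of fold changes with transcript length and GC content its value was -0.01. With Control 2 left out, and the trend kept, the log2 fold change was 0.06.

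Tead2, a factor prominent in embryonic tissue, was at 48.9 and 61.9 FPKM in Control and at 51.6 and 43.7 FPKM in Shh-Stk11, with Control 2 the highest and the groups overlapping. This gave a log2 fold change of -0.21 (SE 0.163, 95% confidence interval -0.60 to 0.18, adjusted p = 0.594). For Tead2 this value was -0.04 without Control 2 and -0.38 without Control 1. Tead3 was at 23.5 and 23.0 FPKM in Control and at 22.3 and 19.6 FPKM in Shh-Stk11. Both Shh-Stk11 libraries lay below both Control libraries, 1 of them by little. The log2 fold change of -0.15 (SE 0.125, 95% confidence interval -0.45 to 0.15, adjusted p = 0.623) did not exceed the spread between replicates in this test, and was -0.06 without Shh-Stk11 2.

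Tead4 had the lowest adjusted p of the 10 genes in the comparison as reported, though not in every alternative setting. In some of these Ankrd1, Ctgf, Cyr61, Tead1 or Tead2 reached lower values than Tead4. Tead4 was at 7.01 and 6.10 FPKM in Control and at 4.89 and 4.76 FPKM in Shh-Stk11. Both Shh-Stk11 libraries lay below both Control libraries, and the replicates of each genotype were closer to each other than to the other genotype. The mean of Control was 6.56 ± 0.641 FPKM, and that of Shh-Stk11 was 4.83 ± 0.0978 FPKM (SD, n = 2), a ratio of 0.742 as fitted. The log2 fold change was -0.43 (SE 0.145, 95% confidence interval -0.78 to -0.08), with an unadjusted p of 0.0229 and an adjusted p of 0.222 in limma. Over the alternative settings the adjusted p lay between 0.178 and 0.557, so Tead4 was not called in any of them. With the length and GC trend removed its log2 fold change was -0.29.

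By level, the order of the family was Tead2, Tead3, Tead1 and Tead4 in all 4 libraries. The summed level of the 4 genes was 97.5 and 105 FPKM in the Control libraries, against 98.7 and 85.7 FPKM in Shh-Stk11. Tead2 made up at least 50.2% of that sum in every library, and Tead3 between 21.9% and 24.1%. The share of Tead4 was 7.19% and 5.82% in Control and 4.96% and 5.55% in Shh-Stk11. The share of Tead1 was 18.5% and 13.3% in Control and 20.1% and 20.7% in Shh-Stk11. The groups did not overlap in either of these shares (exact permutation test, two-sided, p = 0.333 for each, the smallest that this design allows). Once the length and GC trend was removed, the Tead1 share differed by 0.64 percentage points, against 4.5 before. With the trend kept, the difference was 7.1 percentage points without Control 1 and 1.91 without Control 2.

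**Figure D2:**
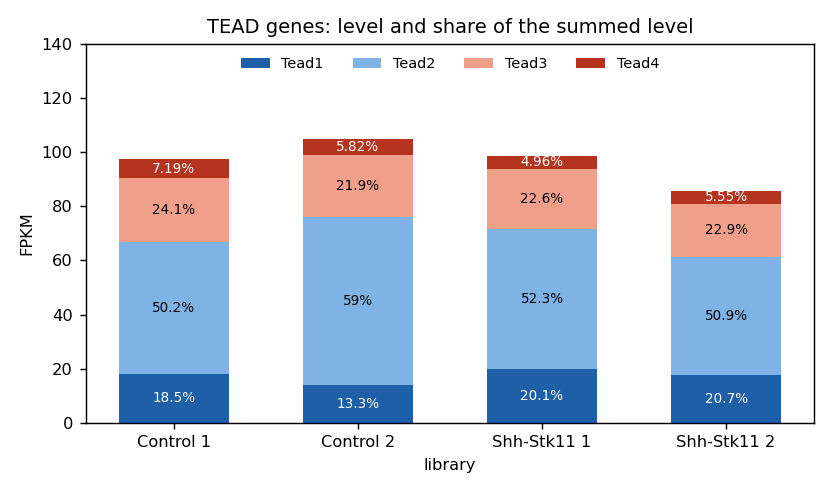
Level of the 4 TEAD genes in each library, stacked to their summed FPKM on an axis that starts at 0, with each gene's share of the sum printed in its segment. Tead2 holds the largest share in all 4 libraries, between 50.2% and 59.0%, and Tead4 the smallest.

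Ctgf, Cyr61, Ankrd1 and Amotl2 are genes that YAP and TAZ switch on through TEAD. TEAD factors recognise a short DNA motif known as MCAT, whose core letters GGAATG were searched, also as the reverse complement CATTCC, in the 250 bases before each annotated start site in RefSeq (GRCm38.p6). RefSeq windows matched 7 of the 10 genes, and 6 of the 7 held the motif (Yap1, Wwtr1, Tead3, Cyr61, Ankrd1 and Amotl2, but not Tead2). Ctgf, Tead1 and Tead4 had no window and were not searched. A gene can have several windows. Among all genes with a window, 14.4% held the motif in at least 1, and among the windows themselves 12.6% did. Of the other YAP and TAZ targets listed below, 3 of 12 with a window held it. A match to 6 letters is a description of the sequence and was not tested as a binding site. The windows of 3 target genes are printed here, since these are the genes by which YAP and TAZ activity is commonly read. They run 5′ to 3′ on the strand of the gene and end at the base before the start site, and the capitals mark the motif.
Cyr61 (listed by RefSeq as Ccn1), chr3:145649986-145650235, minus strand: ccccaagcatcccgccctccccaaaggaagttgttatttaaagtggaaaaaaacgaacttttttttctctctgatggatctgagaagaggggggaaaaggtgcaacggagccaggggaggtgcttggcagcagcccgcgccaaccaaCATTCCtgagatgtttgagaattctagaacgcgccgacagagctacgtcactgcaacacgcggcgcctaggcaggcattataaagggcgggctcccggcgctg
Ankrd1, chr19:36119845-36120094, minus strand: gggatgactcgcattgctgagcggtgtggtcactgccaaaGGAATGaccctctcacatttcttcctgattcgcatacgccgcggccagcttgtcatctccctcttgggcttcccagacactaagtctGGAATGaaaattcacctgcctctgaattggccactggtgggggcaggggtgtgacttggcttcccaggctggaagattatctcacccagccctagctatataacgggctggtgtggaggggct
Amotl2, chr9:102717554-102717803, plus strand: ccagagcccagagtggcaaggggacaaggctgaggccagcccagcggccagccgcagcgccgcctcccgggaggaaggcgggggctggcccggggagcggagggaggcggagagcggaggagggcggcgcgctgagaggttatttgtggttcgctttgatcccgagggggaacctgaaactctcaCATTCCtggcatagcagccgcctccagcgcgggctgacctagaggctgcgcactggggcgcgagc
The Cyr61 motif begins 103 bases before the start site and that of Amotl2 65 bases before it, both in the CATTCC orientation. Ankrd1 holds 2 copies in the GGAATG orientation, 210 and 123 bases before its start site.

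Ctgf, which encodes a secreted matricellular protein, was at 41.4 and 29.6 FPKM in Control and at 23.2 and 29.5 FPKM in Shh-Stk11. Control 1 stood above the other libraries, while Control 2 and Shh-Stk11 2 were almost equal, so the groups were apart by the narrowest margin. The log2 fold change was -0.42 (SE 0.2, 95% confidence interval -0.90 to 0.06, unadjusted p = 0.0772, adjusted p = 0.398 in limma). It was -0.18 without Control 1 and -0.66 without Control 2.

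Cyr61, a related matricellular gene, was at 36.1 and 23.8 FPKM in Control and at 26.3 and 27.5 FPKM in Shh-Stk11. The Shh-Stk11 libraries lay between the Control libraries. Its log2 fold change was -0.13 (SE 0.202, 95% confidence interval -0.61 to 0.36, adjusted p = 0.817), which became 0.17 without Control 1 and -0.42 without Control 2. Amotl2 encodes a junctional protein of the angiomotin family that in turn binds YAP. It was at 34.9 and 24.2 FPKM in Control and at 27.6 and 29.3 FPKM in Shh-Stk11, again with the Shh-Stk11 libraries between the Control libraries. Its log2 fold change was -0.03 (SE 0.187, 95% confidence interval -0.48 to 0.42, adjusted p = 0.956). This was 0.23 without Control 1 and -0.29 without Control 2.

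Control 1 was thus the highest library for these 3 targets and for Wwtr1, and for 7 of the 10 genes in all. Over all genes tested, Control 1 was the highest library for 24.7%. This pattern was noticed after the values were seen. Control 1 lay above the mean of the other 3 libraries by 0.60 for Ctgf, 0.48 for Cyr61, 0.37 for Amotl2 and 0.43 for Wwtr1 on the log2 scale, against a median of 0.02 over all genes tested. Among 18 other YAP and TAZ targets it was the highest library for 6, with a median of 0.11. The pattern was not particular to the 10 genes. In the lists described below, Control 1 was the highest library for 9 of 16 upstream regulators and 4 of 7 tested cofactors and LATS inhibitors. It was so for 3 of 7 core cassette genes, 4 of 9 STK11, MARK and polarity genes and 3 of 11 immediate early genes. Control 1 was also the highest library for 6 of 6 endothelial markers and 5 of 7 mesenchymal markers, whose part in the result was not tested.

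Ankrd1, which encodes a nuclear ankyrin repeat protein of heart and skeletal muscle, varied more than any of the other 9 genes. It was at 1.80 and 5.40 FPKM in Control and at 3.12 and 0.366 FPKM in Shh-Stk11. These levels correspond to about 124, 308, 174 and 22 reads. Shh-Stk11 2 was far below the rest and Control 2 the highest, so that each genotype had a high and a low library. The log2 fold change was -1.40 (SE 0.903, 95% confidence interval -3.57 to 0.77, adjusted p = 0.528). Without Shh-Stk11 2 it was -0.01, whereas without Shh-Stk11 1 it was -2.79. Over the alternative settings the adjusted p lay between 0.0522 (a crossed replicate block chosen after seeing the data) and 0.998, and it was 0.0959 without Shh-Stk11 1.

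Heart muscle genes varied with Ankrd1 across the libraries. The order of the libraries for Ankrd1, from Control 2 through Shh-Stk11 1 and Control 1 to Shh-Stk11 2, was that of 6 of the 7 heart muscle markers that passed the expression filter (Myh6, Myl7, Actc1, Tnnt2, Tnni3 and Myl4, but not Myh7). Over all genes tested, 4.28% had this order, Tead2 among them. The summed level of the 10 heart muscle markers was 137 and 294 FPKM in Control 1 and 2, against 172 and 69.7 FPKM in Shh-Stk11 1 and 2, and no marker of the list was at 0 in every library. Per 100 FPKM of these markers, Ankrd1 was at 1.31, 1.84, 1.81 and 0.525 FPKM in Control 1 and 2 and in Shh-Stk11 1 and 2. Their part in the Ankrd1 values was not tested. The 6 skeletal muscle markers summed to 14.0 and 25.1 FPKM in Control and to 15.9 and 13.2 FPKM in Shh-Stk11. Of these, Ckm had the library order of Ankrd1, with 5.04 and 12.2 FPKM in Control and 5.63 and 1.97 FPKM in Shh-Stk11, Mylpf was at 7.14 to 10.5 FPKM without that order, and the defining gene Myod1 was at 0 in all 4 libraries.

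**Figure D3:**
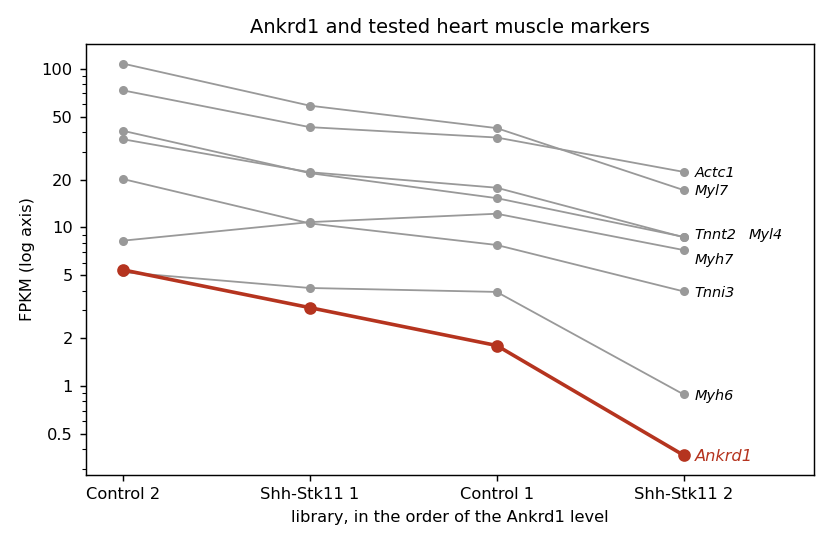
FPKM (log axis) of Ankrd1 and of the 7 tested heart muscle markers, with the libraries placed in the order of the Ankrd1 level from Control 2 to Shh-Stk11 2. Along this order Ankrd1 goes from 5.40 to 0.366 FPKM, and 6 of the 7 markers descend in the same order while Myh7 does not.

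Over the 10 genes, 9 of the log2 fold changes were below 0 and the median was -0.16. Over all genes tested the median was -0.05, so a majority of these were also below 0. For the 10 genes the median was -0.35 without Control 2, and -0.08 without Control 1 and likewise without Shh-Stk11 2. The count below 0 was 8 under quantile normalization, median-ratio scaling or removal of the length and GC trend, and 6 without Control 1. The groups did not overlap for 3 of the 10, all lower in Shh-Stk11, whereas they did not overlap for 46.8% of all genes tested (2646 higher and 3805 lower). The mesenchymal and endothelial markers were lower in Shh-Stk11 for 7 of 7 and 6 of 6 genes, with median log2 fold changes of -0.38 and -0.34, and 0 of them passed the test (limma, 3 and 2 at an unadjusted p under 0.05). The summed mesenchymal level ranged from 1950 to 2150 FPKM in Control and from 1520 to 1710 FPKM in Shh-Stk11. The summed endothelial level ranged from 475 to 568 and from 389 to 412 FPKM. Vim held most of the mesenchymal sum, at 1270 and 1210 FPKM in Control and at 834 and 1080 FPKM in Shh-Stk11. In the same list Col1a1 and Pdgfrb gave -0.03 and -0.05. The lung epithelial sum, most of it Sftpc, was 18500 and 16800 FPKM in Control, against 9300 and 13500 FPKM in Shh-Stk11. The red blood cell sum was 5570 and 5780 FPKM in Control, against 3740 and 4090 FPKM in Shh-Stk11. The red blood cell markers were lower for 6 of 6 genes (median -0.54), and 1 of them was called, Hba-x, an embryonic globin gene that fell by 1.49 on the log2 scale (adjusted p = 0.0158). The lung epithelial markers were higher for 7 of 9 genes with a median of 0.20, and 0 were called (limma, 3 at an unadjusted p under 0.05, all higher), while Sftpc, a surfactant gene of distal epithelium, had a value of -0.76 (adjusted p = 0.447). The smooth muscle markers were lower for 4 of 5 genes, with a median of -0.05. Their sum was 434 and 495 FPKM in Control and 415 and 500 FPKM in Shh-Stk11. The mesothelial markers were lower for 3 of 4 genes with a median of -0.33, and 0 genes of either list were called. No marker of these lists was at 0 in every library, and their part in the values of the 10 genes was not tested. In whole lung, fewer cells of a type and less RNA per cell cannot be told apart.

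**Figure D4:**
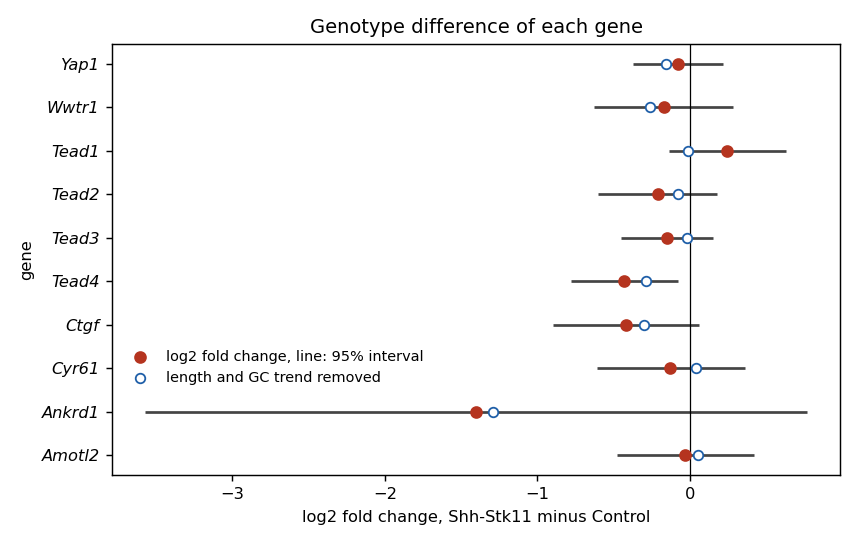
Log2 fold change (Shh-Stk11 minus Control) of each of the 10 genes with its 95% confidence interval, from limma on log2(FPKM + 0.1). All intervals but that of Tead4 (-0.78 to -0.08) include 0, and that of Ankrd1 is the widest, from -3.57 to 0.77.

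By mean level over the 4 libraries the order was Wwtr1 (71.6 FPKM), Tead2 (51.5), Yap1 (43.2), Ctgf (30.9), Amotl2 (29.0), Cyr61 (28.5), Tead3 (22.1), Tead1 (17.4), Tead4 (5.69) and Ankrd1 (2.67). The ranges over the libraries overlapped between most neighbours in this order, from Wwtr1 down to Cyr61, between Tead3 and Tead1, and between Tead4 and Ankrd1. They did not overlap between Cyr61 and Tead3, although by little, or between Tead1 and Tead4. Within each single library, Wwtr1 was above Tead2, Tead2 above Yap1, Yap1 above Ctgf, Tead3 above Tead1 and Tead4 above Ankrd1. Only Ctgf, Amotl2 and Cyr61 changed places among themselves between libraries.

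The kinases upstream of YAP and TAZ were expressed in all libraries. Of the 7 genes of the core cassette, 5 were higher and 2 lower in Shh-Stk11, with a median log2 fold change of 0.11, and none was called (limma, 1 at an unadjusted p under 0.05). Stk4 and Stk3, which encode MST1 and MST2, were at 17.9 to 23.1 and 12.9 to 19.6 FPKM, and their adaptor Sav1 was at 34.4 to 38.1 FPKM. Lats1 and Lats2 were at 9.62 to 13.3 and 16.3 to 18.2 FPKM. The LATS activators Mob1a and Mob1b, which the table lists under the older symbols Mobkl1b and Mobkl1a, were at 66.1 to 75.6 and 7.32 to 15.8 FPKM. Mob1b had the largest difference of the cassette, 0.67 (adjusted p = 0.201), which was 0.16 after removal of the length and GC trend. Stk3 and Lats1 followed with 0.25 and 0.26 (adjusted p = 0.58 and 0.489), and these were 0.04 and 0.0067 with the same trend removed. Stk3 was 0.06 without Shh-Stk11 1, and Lats1 was 0.09 without Control 2.

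Among 16 upstream regulators, 7 were higher and 9 lower with a median of -0.02, and 1 was called. Taok1, a kinase that can activate the MST and LATS kinases, was at 7.33 and 6.21 FPKM in Control and at 15.0 and 12.8 FPKM in Shh-Stk11. Both Shh-Stk11 libraries lay far above both Control libraries, and Taok1 rose by a log2 fold change of 1.03 (SE 0.152, 95% confidence interval 0.66 to 1.40, adjusted p = 0.0289). Its longest transcript spans 12409 bases, and the rise was 0.55 with an adjusted p of 0.0895 after removal of the length and GC trend. Leaving out any single library also ended this call, with adjusted p from 0.0655 to 0.166. The related kinases Taok2 and Taok3 gave -0.03 and -0.02, and the next largest values of the list were -0.14 each for Wwc2, of the KIBRA family, and the kinase Mink1.

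Of 9 cofactors and LATS inhibitors 7 were tested, since Vgll1 and Vgll2 were below the filter. A positive value was found for 2 and a negative value for 5, with a median of -0.13, and 0 were called (limma, 1 at an unadjusted p under 0.05). The LIM proteins Wtip, Limd1 and Ajuba (listed as Jub), which bind LATS kinases, had the largest values, -0.35, -0.20 and -0.19 (adjusted p = 0.287, 0.671 and 0.537). Of 18 further targets of YAP and TAZ, 9 were higher and 9 lower with a median of -0.01, and 0 were called (limma, 4 at an unadjusted p under 0.05, 2 in each direction). Nuak2, an AMPK-related kinase that STK11 also activates, was at 7.46 and 6.28 FPKM in Control and at 9.26 and 10.2 FPKM in Shh-Stk11, without overlap (log2 fold change 0.50, adjusted p = 0.165). Dock5 gave 0.47 (adjusted p = 0.271) and the mesenchymal transcription factor Foxf2 gave -0.40 (adjusted p = 0.169). Together with the 4 targets described above, 9 of 22 targets were higher and 13 lower, with a median of -0.04.

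The STK11, MARK and polarity genes included Stk11, the only 1 of 9 that was called. The MARK kinases and polarity genes lay between -0.30 for Llgl2 (adjusted p = 0.311) and 0.13 for Mark2 (adjusted p = 0.76), and Mark4 gave -0.22 (adjusted p = 0.533). Immediate early genes, which growth factors and other stimuli induce quickly, had values in both directions. Of 11 tested genes 7 were higher and 4 lower, with a median of 0.21 and 1 called. Egr1 rose from 3.03 and 3.26 FPKM in Control to 6.26 and 6.84 FPKM in Shh-Stk11 (log2 fold change 1.04, SE 0.148, adjusted p = 0.0259), and was called in 9 of 15 alternative settings. Without any 1 of the 4 libraries the Egr1 call was lost, with adjusted p from 0.0927 (without Shh-Stk11 1) to 0.17 (without Control 1). Ier3 and Atf3 gave -0.84 and 0.77 (adjusted p = 0.0774 and 0.154).

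**Figure D5:**
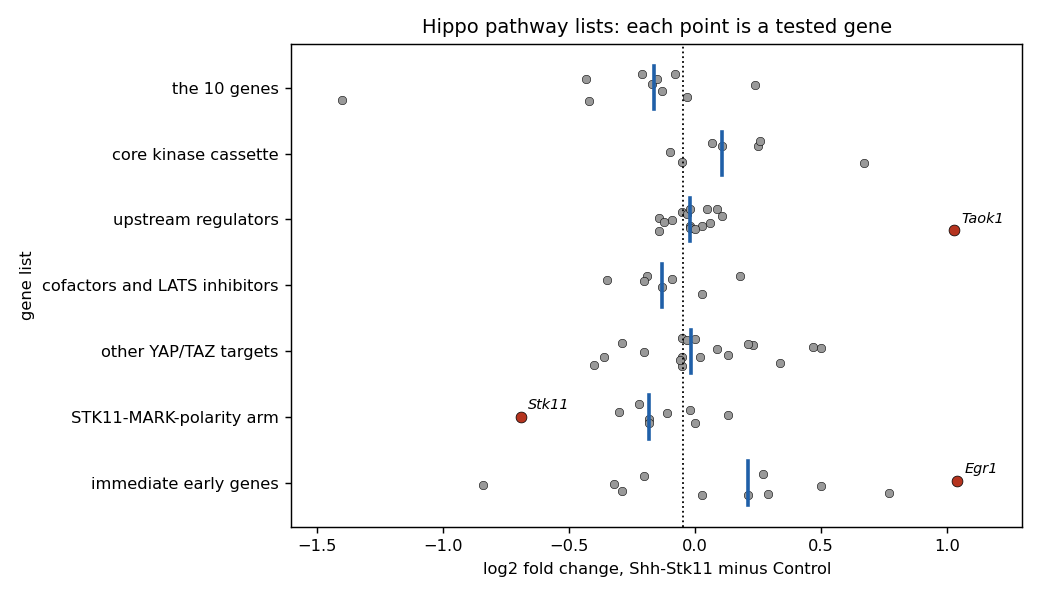
Log2 fold change (Shh-Stk11 minus Control) of every tested gene of the 10 genes and of 6 further lists, with a blue bar at the median of each list and a dotted line at the median of all genes tested. Only Taok1, Stk11 and Egr1, drawn in red, have an adjusted p under 0.05 in limma.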

How the data were processed

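Libraries from whole embryonic lungs, 2 Control and 2 Shh-Stk11, were analyzed. The authors deposited FPKM values for 22556 genes, made from single-end reads of total RNA. The submitters' processing notes name TopHat2 2.0.13, Cufflinks 2.2.1 and the builds GRCm38 and mm9 without their roles, so no coordinates were taken from the table. The relative depth was the trial depth with the largest share of low FPKM values at whole numbers of reads, within 0.05 read. Genes with a single transcript of at least 1500 bases were used. That share was 68.2% to 69.8% per library, against a median of 3.89% to 4.46% over the trial depths. Read numbers assume the longest transcript of each gene less 200 bases. One read on 2000 bases was worth 0.0147 to 0.0181 FPKM. Estimated read numbers carry counting error and the error of the assumed transcript length and recovered depth.

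Genotypes were compared with limma 3.58.1 in R 4.3.3 (lmFit, then eBayes with a trend, 4.48 prior and 2 residual degrees of freedom) on log2(FPKM + 0.1), a scale that understates changes of low genes. Tests were two-sided and adjusted over all 13770 genes whose mean reached 0.5 FPKM. The procedure was tested on simulated data. The 10 genes and all lists were chosen with earlier results of these data known. Genes named from the other lists are those past the threshold and the 3 with the largest absolute fold change, plus every core cassette gene by its level. Taok2, Taok3, Mark2, Vim, Col1a1, Pdgfrb and the sex-linked, lung, blood, smooth muscle, mesothelial and skeletal muscle markers were named after their values were seen. Symbols missing from the table were matched through RefSeq synonyms. The alternatives were pseudocounts of 0.01 and 1, filters of 0.1 and 5 FPKM and no filter, quantile normalization, median-ratio scaling, eBayes without trend or robust, removal of a smooth trend on transcript length and GC content (mgcv 1.9.3), a replicate block, a crossed block added after seeing the data, and leaving out each library.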

Additional observations from a re-analysis of the deposited data

How the results depend on the processing

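None of the 10 genes was called under any of the 16 alternatives tried. The number of genes called among all genes tested was 313 as reported, 200 with at least 5 FPKM (110 higher and 90 lower), 1 without a filter, 587 with robust eBayes, 182 with the length and GC trend removed, and 38 to 191 with 1 library left out. The split was 135 higher and 178 lower as reported. The replicate numbers do not mark a litter or batch in the labels, and same-numbered libraries deviated with a correlation of -0.114. With the replicate number as a block 13 genes were called, and with the crossed pairing, chosen after seeing the data, 675 were called.

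With 1 library left out, the median log2 fold change of the 10 genes ranged from -0.35 (without Control 2) to -0.08. The ranges were -0.41 to 0.06 for Wwtr1, -0.42 to 0.17 for Cyr61, -0.29 to 0.23 for Amotl2, -0.42 to 0.13 for Wwc2 and -0.48 to 0.07 for Limd1, and -0.29 to 0.09 for the log2 ratio of Wwtr1 to Yap1. Removal of the length and GC trend gave -0.01 for Tead1, 0.04 for Cyr61 and 0.05 for Amotl2, and Amotl2 was 0.02 under quantile normalization and 0.0099 under median-ratio scaling. The causes of these changes were not tested. Of 159 values of single members under the alternatives, 150 kept their direction and their side of the threshold and 9 changed sign. Ankrd1 had no value with at least 5 FPKM. Taok1, Stk11 and Egr1 lost their calls in 26 cases, and Ier3 gained one in 2.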
